A study of Mus musculus with 6 samples.

Results

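DNA replication and S-phase genes were examined in RNA-Seq of bone marrow-derived macrophages (BMDM) that lack PP2Ac, the catalytic subunit of protein phosphatase 2A, and in WT BMDM. The set holds 47 genes chosen by symbol for their known part in copying DNA, out of 55453 genes listed in the counts. All 47 passed the filter on low counts, along with 13680 genes in all. The members fall into 7 roles: origin licensing, helicase activation, polymerases and primase, the clamp with its loader and Okazaki fragment enzymes, nucleotide supply, chromatin and histone supply, and repair and checkpoint.

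The study asked how PP2Ac shapes STING signaling in macrophages, and the 6 libraries compare genotypes, with 3 libraries labelled PP2A KO and 3 labelled Wild Type, all of strain C57BL/6 (called PP2Ac KO and PP2Ac WT below). In the PP2Ac KO mice (LysMcre PP2Ac fl/fl), loxP sites flank exon 1 of Ppp2ca and cre is driven by the Lysozyme 2 promoter, which is active across myeloid cells. The study describes its RNA-Seq as made on BMDM given the STING agonist cGAMP, but the labels give no treatment, dose, time, sex or age. WT mice came from The Jackson Laboratory and the floxed mice from another colony, the sources do not call the groups littermates, and whether the WT mice carry cre is not stated. Colony and genotype therefore cannot be told apart. Nothing in the labels says that libraries of a group came from separate mice, so p-values measure the spread between these libraries, which may be technical.

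Libraries held 35257156 to 47390899 counts, and 3 counts corresponded to 0.0604 to 0.0909 CPM (counts scaled to library size by TMM). Reads on Ppp2ca numbered 47, 33 and 38 in PP2Ac KO and 10654, 8913 and 8279 in PP2Ac WT, which matches the genotype labels. The 10 macrophage markers were all measured in every library and summed to 9170 to 9320 CPM in PP2Ac KO and 7800 to 8300 CPM in PP2Ac WT. Among them Lyz2, the gene whose promoter drives cre, had only 6.58 to 10.1 CPM in the counts, whereas Csf1r had 2880 to 3560 CPM. Xist was at 0 to 3 counts and Ddx3y at 2070 to 3404 counts in every library. Of 10 fibroblast markers, 9 could be tested and 8 were lower in PP2Ac KO at an FDR under 0.05 (88.9%, beside 19.0% of all genes). Their summed level was 41.4, 33.9 and 28.5 CPM in PP2Ac KO and 126, 138 and 89.5 CPM in PP2Ac WT, and Lum was at or near 0 in all libraries. Markers of myeloid progenitors and granulocytes summed to 4.74 to 4.96 CPM against 3.42 to 3.89 CPM, and those of lymphocytes to 0.878 to 1.46 CPM against 0.501 to 0.644 CPM. Erythroid and megakaryocyte markers summed to 11.4 to 13.4 CPM in PP2Ac KO and 13.3 to 16.4 CPM in PP2Ac WT. The part of these other cell types in the results below was not tested.

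A cell copies its DNA in S phase. Before that, the origin recognition complex with CDC6 and CDT1 loads the MCM2 to MCM7 helicase onto origins, and CDC45 with the GINS complex then turns the helicase on. Polymerase alpha with primase starts each strand, replication factor C loads the PCNA clamp, and polymerases delta and epsilon extend, while FEN1 and LIG1 join the lagging-strand pieces. Many of these genes are transcribed as cells leave G1, under E2F transcription factors that are held in check by RB family proteins. BMDM divide while they grow from marrow in M-CSF and leave the cycle as they mature or are activated.

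The promoters of 8 members are printed because E2F-type elements were more frequent in the members' promoters than in promoters in general. Windows hold the 250 bases before a RefSeq transcription start (GRCm38.p6), 5′ to 3′ on the gene's own strand. Capitals mark the heptamers TTGGCGC or TTCCCGC or TTCGCGC or TTGCCGC on either strand, with overlapping matches written as 1 run. The first 6 have the most matches. The Dnmt1 window lies downstream of its other listed starts (windows chr9:20952980-20953229 and chr9:20959889-20960138, minus strand). Its matches may therefore lie in transcribed sequence. Rrm2 and Rfc3 were added after their values were seen, as the members with the largest fall and the largest rise. The windows are Pola1 at chrX:93632156-93632405 (minus strand), Mcm5 at chr8:75109259-75109508 (plus), Mcm6 at chr1:128359706-128359955 (minus), Chaf1a at chr17:56040166-56040415 (plus), Dnmt1, at the 1 of its 3 listed starts with matches, at chr9:20952624-20952873 (minus), Hells at chr19:38930740-38930989 (plus), Rrm2 at chr12:24708004-24708253 (plus) and Rfc3 at chr5:151651209-151651458 (minus).
Pola1: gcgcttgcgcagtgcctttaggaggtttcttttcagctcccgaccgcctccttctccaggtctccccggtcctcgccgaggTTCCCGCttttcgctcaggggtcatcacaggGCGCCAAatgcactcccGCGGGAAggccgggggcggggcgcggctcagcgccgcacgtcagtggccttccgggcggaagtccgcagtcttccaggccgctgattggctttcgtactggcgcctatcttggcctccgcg
Mcm5: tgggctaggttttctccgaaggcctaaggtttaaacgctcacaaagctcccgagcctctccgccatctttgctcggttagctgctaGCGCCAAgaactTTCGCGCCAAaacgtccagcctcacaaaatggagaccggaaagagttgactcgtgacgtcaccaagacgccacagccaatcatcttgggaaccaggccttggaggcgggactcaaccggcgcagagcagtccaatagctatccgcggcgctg
Mcm6: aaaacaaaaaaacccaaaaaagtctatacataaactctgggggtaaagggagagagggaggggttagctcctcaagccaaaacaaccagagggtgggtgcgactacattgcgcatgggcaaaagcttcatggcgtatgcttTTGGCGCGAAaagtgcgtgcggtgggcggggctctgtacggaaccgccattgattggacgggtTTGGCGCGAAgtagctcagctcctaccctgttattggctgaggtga
Chaf1a: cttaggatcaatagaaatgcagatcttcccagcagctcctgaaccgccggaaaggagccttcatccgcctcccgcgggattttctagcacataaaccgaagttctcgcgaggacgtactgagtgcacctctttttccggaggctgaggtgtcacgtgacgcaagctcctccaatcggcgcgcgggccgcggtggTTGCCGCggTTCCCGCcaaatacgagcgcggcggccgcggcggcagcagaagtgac
Dnmt1: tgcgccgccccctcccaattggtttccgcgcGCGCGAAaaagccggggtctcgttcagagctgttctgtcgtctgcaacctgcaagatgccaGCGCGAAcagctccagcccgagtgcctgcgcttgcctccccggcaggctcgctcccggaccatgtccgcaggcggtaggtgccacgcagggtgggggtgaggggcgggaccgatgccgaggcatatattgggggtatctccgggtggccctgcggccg
Hells: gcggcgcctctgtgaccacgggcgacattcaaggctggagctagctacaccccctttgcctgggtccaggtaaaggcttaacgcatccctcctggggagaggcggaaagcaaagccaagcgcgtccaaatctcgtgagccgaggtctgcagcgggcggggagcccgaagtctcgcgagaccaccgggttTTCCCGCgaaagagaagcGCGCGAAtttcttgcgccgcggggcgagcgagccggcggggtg
Rrm2: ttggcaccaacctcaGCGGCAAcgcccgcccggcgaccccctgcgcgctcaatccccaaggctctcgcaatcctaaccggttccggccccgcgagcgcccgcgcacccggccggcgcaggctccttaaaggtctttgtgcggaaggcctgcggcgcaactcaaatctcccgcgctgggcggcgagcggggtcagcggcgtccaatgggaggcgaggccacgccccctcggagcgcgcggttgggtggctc
Rfc3: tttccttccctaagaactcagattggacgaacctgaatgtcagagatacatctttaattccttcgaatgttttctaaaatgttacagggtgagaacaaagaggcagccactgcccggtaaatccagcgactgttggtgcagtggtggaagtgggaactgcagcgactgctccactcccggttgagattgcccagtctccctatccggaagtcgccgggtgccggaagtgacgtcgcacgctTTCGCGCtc

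RefSeq windows were found for 40 of the 47 members, 47 windows in all. An E2F-type heptamer occurred in 44.7% of the members' windows, in 13.5% of windows of all genes tested and in 7.9% of all 32851 windows. The letters CCAAT, on either strand, occurred in 59.6% of the members' windows and in 33.8% of all windows. Pola1 had 3 separate runs, at 169, 138 and 121 bases before the start. The share with an E2F-type heptamer was 48.0% of 25 windows of members that fell, 42.1% of 19 windows of members that did not pass the test and 33.3% of 3 windows of members that rose. Of the 8 genes whose promoters are printed above, Rrm2, Mcm5 and Chaf1a fell, Rfc3 rose, and Pola1, Mcm6, Dnmt1 and Hells did not pass the test. In the full RefSeq windows, which run on past the start, the heptamers occurred in 68.1% of the members' windows and 16.3% of those of genes tested, with 76.0% for members that fell, 63.2% for those that did not pass and 33.3% for those that rose. A match describes letters only and is no evidence of binding.

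More of the members fell than rose in PP2Ac KO, most by modest amounts. Of the 47 members, 23 fell (48.9%) and 3 rose (6.38%) at an FDR under 0.05, while 21 did not pass the test. Over all 13680 genes tested, 19.0% fell and 18.1% rose. Log2 fold changes of the members ranged from -2.05 to 0.81 (median -0.27), beside a median of -0.02 for all genes. In 24 members (51.1%) every PP2Ac KO library was below every PP2Ac WT library, against 26.8% of all genes, and in 7 (14.9%) every PP2Ac KO library was above, against 24.0%. In bulk RNA, fewer cells in S phase and less of these transcripts per cell cannot be told apart.

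Most of the falls were small. Only Rrm2, Clspn and Brca1 fell by over 2-fold at an FDR under 0.01 (6.38% of members, 2.99% of all genes), and no member rose that far. The members' summed level was 960, 957 and 958 CPM in PP2Ac KO and 1050, 1020 and 1050 CPM in PP2Ac WT. The summed levels did not overlap between genotypes. In a fit that blocked on the replicate number, 27 members fell (57.4%, beside 26.4% of all genes) and 6 rose (12.8%, beside 24.4%), and the 3 rises became 6 through Mcm6, Gins1 and Pola1. The number of rises was 1 without PP2Ac KO library 2 or 3 or PP2Ac WT library 2 or 3, and 5 without PP2Ac WT library 1. Leaving out 1 library ended the calls of Mcm4 (5 of the 6 libraries), Exo1 (4), Dut (4), Cdc45 (4), Pold1 (5), Fen1 (4), Pole2 (3), Prim1 (3) and Chaf1b (only PP2Ac WT library 2) among the falls, and of Mcm10 (5) and Rfc5 (4) among the rises.

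**Figure D1:**
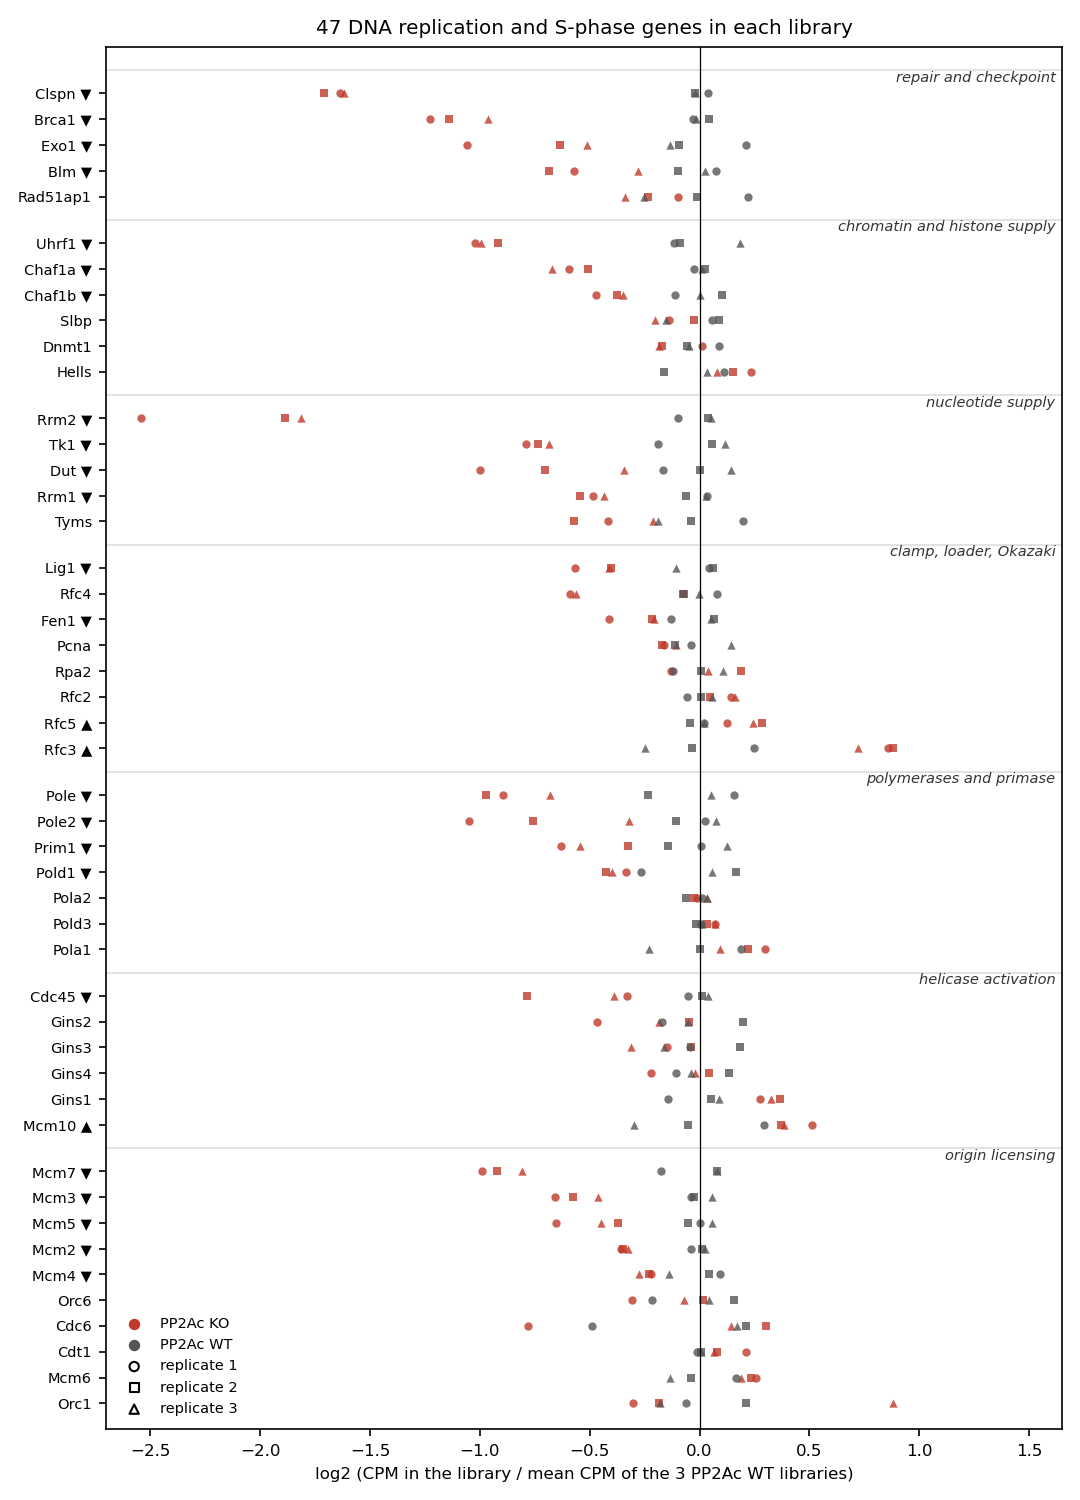
Level of each of the 47 members in each library, as log2 of its CPM over the mean CPM of the 3 PP2Ac WT libraries (x axis), grouped by role (y axis). Red points are PP2Ac KO and grey points PP2Ac WT, point shape gives the replicate number, and triangles beside a symbol mark the 23 members that fell and the 3 that rose. Red points lie to the left of grey for most members, farthest for Rrm2 and Clspn, and to the right for Rfc3.

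Of the 5 members that supply deoxynucleotides, 4 fell (80%, beside 19.0% of all genes, median log2 fold change -0.65). These were Rrm2, Tk1, Dut and Rrm1. For all 5 genes of the role every PP2Ac KO library was below every PP2Ac WT library, as for 26.8% of all genes. Rrm2 (ENSMUSG00000020649.11, GRCm38 chr12:24708241-24714146, plus strand) encodes the S-phase subunit of ribonucleotide reductase, the enzyme that makes deoxynucleotides from ribonucleotides. It had 2.40, 3.79 and 3.98 CPM in PP2Ac KO and 13.1, 14.4 and 14.5 CPM in PP2Ac WT. The highest PP2Ac KO library was far below the lowest PP2Ac WT library, and the PP2Ac KO level was 24.1% of the PP2Ac WT level. The log2 fold change was -2.05 (SE 0.16, adjusted p = 6.03e-05, edgeR's quasi-likelihood test), the largest of any member.

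Rrm1, the large subunit that Rrm2 works with, fell less. Its levels of 25.4, 24.4 and 26.3 CPM in PP2Ac KO were below 36.5, 34.1 and 36.3 CPM in PP2Ac WT (log2 fold change -0.49, SE 0.06, adjusted p = 0.000414, edgeR). Per exon length, the ratio of Rrm2 to Rrm1 was 0.376, 0.616 and 0.602 in PP2Ac KO and 1.42, 1.68 and 1.59 in PP2Ac WT. The ratios did not overlap between genotypes (exact permutation test, two-sided, p = 0.1, the smallest that 3 libraries against 3 can give). The 8 subunit pairs given here and below were picked after their values were seen, so this test cannot support a difference between subunits. Rrm2b, the p53-inducible alternative to Rrm2 and not a member, had 17.3, 17.8 and 18.3 CPM in PP2Ac KO and 17.6, 14.9 and 16.4 CPM in PP2Ac WT and did not pass the test (log2 fold change 0.13, adjusted p = 0.234, edgeR). Rrm2 to Rrm2b ratios per length were 0.459, 0.700 and 0.716 in PP2Ac KO and 2.45, 3.19 and 2.91 in PP2Ac WT, again with an exact p of 0.1.

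Tk1, the thymidine kinase of dividing cells, fell to 60.2% of the PP2Ac WT level (log2 fold change -0.73, SE 0.11), and Dut, which removes dUTP, to 63.7% (log2 fold change -0.65, SE 0.19). Tyms, the thymidylate synthase, had 2.26, 2.03 and 2.61 CPM in PP2Ac KO and 3.46, 2.94 and 2.65 CPM in PP2Ac WT. Its groups did not overlap, but PP2Ac KO library 3 and PP2Ac WT library 3 almost met, and it did not pass the test (log2 fold change -0.39, SE 0.16, adjusted p = 0.0818, edgeR). Some reads of Tyms may also match other genes, since 5.2% of its 50-base windows occur elsewhere among annotated transcripts.

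Repair and checkpoint genes of S phase were lower to a similar degree, with 4 of 5 falling (80%, beside 19.0% of all genes, median log2 fold change -0.73). Clspn (ENSMUSG00000042489.15, GRCm38 chr4:126556935-126593903, plus strand) encodes claspin, which links stalled forks to the kinase CHK1. It had 1.49, 1.42 and 1.51 CPM in PP2Ac KO and 4.77, 4.58 and 4.58 CPM in PP2Ac WT. The libraries of each genotype lay close together, and the PP2Ac KO level was 31.8% of the PP2Ac WT level (log2 fold change -1.65, SE 0.12, adjusted p = 5.51e-05, edgeR). Brca1, which acts in homologous recombination and fork protection (GRCm38 chr11:101488764-101551955, minus strand), had 4.27, 4.54 and 5.13 CPM in PP2Ac KO and 9.78, 10.3 and 9.90 CPM in PP2Ac WT. Its PP2Ac KO level was 46.5% of the PP2Ac WT level (log2 fold change -1.11, SE 0.10, adjusted p = 9.29e-05, edgeR), again without overlap.

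Exo1, a nuclease that resects DNA ends, fell to 60.4% (log2 fold change -0.73, SE 0.23, adjusted p = 0.0313, edgeR) from a low level, 1.03 to 1.31 CPM in PP2Ac WT. Blm, a helicase that dissolves recombination intermediates, fell to 70.7% (log2 fold change -0.50, SE 0.13, adjusted p = 0.0122, edgeR). Rad51ap1, which acts in DNA repair, did not pass the test. Its levels of 2.66, 2.42 and 2.25 CPM in PP2Ac KO overlapped 3.32, 2.83 and 2.39 CPM in PP2Ac WT (log2 fold change -0.22, SE 0.16, adjusted p = 0.306, edgeR).

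In origin licensing, 5 of 10 genes fell (50%, beside 19.0% of all genes), and these 5 were all subunits of the MCM helicase. Mcm7 fell most, to 53.5% of the PP2Ac WT level, from 13.8, 16.5 and 16.5 CPM in PP2Ac WT to 7.85, 8.24 and 8.91 CPM in PP2Ac KO (log2 fold change -0.90, SE 0.10, adjusted p = 0.00019, edgeR). Mcm3 fell to 67.8% (log2 fold change -0.56, SE 0.07), Mcm5 to 71.3% (-0.49, SE 0.08), Mcm2 to 78.8% (-0.34, SE 0.08) and Mcm4 to 84.4% (-0.24, SE 0.07). Mcm7 shares part of its exons with Mir25 and Mir93 on the same strand, and 18.1% of its 50-base windows occur in other annotated transcripts.

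Mcm6, the remaining subunit of the ring, stood on the other side. It had 128, 126 and 122 CPM in PP2Ac KO and 120, 104 and 97.4 CPM in PP2Ac WT, so every PP2Ac KO library was above every PP2Ac WT library. The log2 fold change was 0.23 (SE 0.08) with an adjusted p of 0.0516 in edgeR's quasi-likelihood test, and of 0.00251 under the replicate block. It passed as a rise with DESeq2, with limma-voom, with RLE scaling, without the filter on low counts and without PP2Ac WT library 1. Mcm6 was also the most abundant subunit. Per kb of exon it had 27.5, 27 and 26.2 CPM in PP2Ac KO and 25.7, 22.2 and 20.9 CPM in PP2Ac WT, and it made up 61.7% ± 1.37 of the summed level of Mcm2 to Mcm7 in PP2Ac KO and 49.7% ± 2.74 in PP2Ac WT (SD, n = 3). Mcm2 was lowest per kb, with 1.21, 1.22 and 1.24 CPM in PP2Ac KO and 1.51, 1.56 and 1.58 CPM in PP2Ac WT. These levels rest on the union of all annotated exons, so a gene with long exons that the cells do not use is placed too low.

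The ratio of Mcm6 to Mcm7 per length was 15.5, 14.5 and 13.0 in PP2Ac KO and 8.21, 5.98 and 5.61 in PP2Ac WT. The difference on the log2 scale was 1.13, and the ratios did not overlap (exact permutation test, two-sided, p = 0.1, the smallest possible here). This pair was also picked after its values were seen. PP2Ac WT library 1 was the WT library nearest to PP2Ac KO in this ratio. The proteins form a ring with 1 copy of each subunit, but the transcripts were far from equal in both genotypes.

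**Figure D2:**
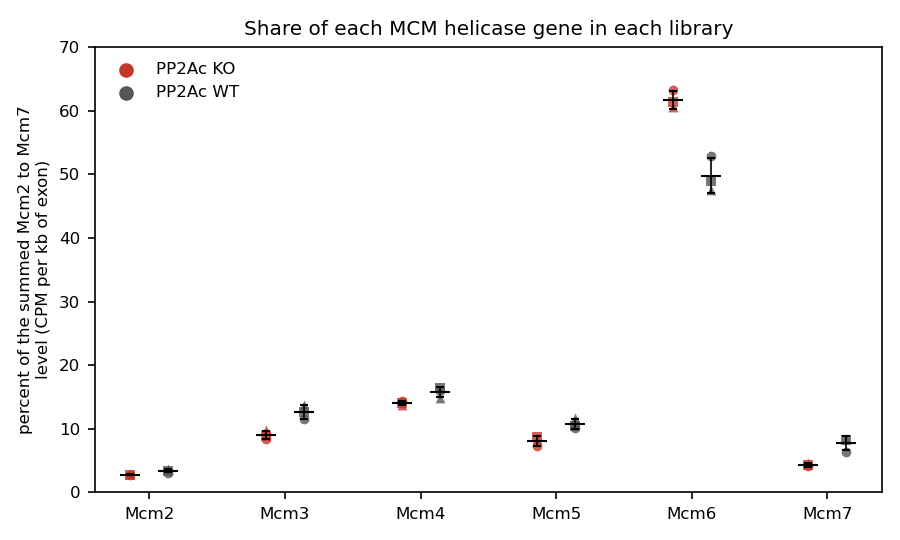
Share of each of Mcm2 to Mcm7 in their summed level (percent of summed CPM per kb of exon, y axis) by subunit (x axis), with a point per library, red for PP2Ac KO and grey for PP2Ac WT; bars give the mean and SD of 3 libraries. Mcm6 takes 61.7% in PP2Ac KO and 49.7% in PP2Ac WT, and the other subunits each take a smaller share in PP2Ac KO.

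The 4 members that load the helicase did not pass the test. Of the origin recognition complex genes that are not members, Orc2 (log2 fold change -0.32, SE 0.10) and Orc5 (-0.25, SE 0.08) fell, calls that were each lost with some libraries left out. Cdt1 had 60.6, 55.2 and 54.7 CPM in PP2Ac KO and 51.9, 52.6 and 52.6 CPM in PP2Ac WT, with all PP2Ac KO libraries above (log2 fold change 0.12, SE 0.06, adjusted p = 0.153, edgeR). Orc6, the smallest subunit of the origin recognition complex, had 3.65, 4.57 and 4.31 CPM against 3.89, 5.04 and 4.65 CPM, with overlap (log2 fold change -0.12, SE 0.14). Both of the remaining loaders were expressed at low levels. Cdc6 had 0.542, 1.15 and 1.03 CPM in PP2Ac KO and 0.664, 1.08 and 1.05 CPM in PP2Ac WT (log2 fold change -0.04, SE 0.31), and Orc1, the large subunit of the origin recognition complex, had 0.306, 0.333 and 0.695 CPM against 0.362, 0.437 and 0.334 CPM (log2 fold change 0.25, SE 0.36). The SE of each exceeded its log2 fold change, so a change of that size was not detectable at this depth.

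In helicase activation, 1 of 6 genes fell and 1 rose (16.7% each), which is near the 19.0% and 18.1% of all genes. Cdc45, which completes the active helicase, fell from 2.78, 2.90 and 2.96 CPM in PP2Ac WT to 2.29, 1.67 and 2.20 CPM in PP2Ac KO (log2 fold change -0.48, SE 0.15, adjusted p = 0.0348, edgeR). Mcm10, which acts on the helicase as it starts, rose from 16.4, 12.9 and 10.9 CPM in PP2Ac WT to 19.1, 17.3 and 17.5 CPM in PP2Ac KO (log2 fold change 0.42, SE 0.13, adjusted p = 0.0334, edgeR). PP2Ac WT library 1 came near the PP2Ac KO libraries in Mcm10, but the groups did not overlap.

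None of the 4 GINS genes passed the test without the block. Gins1 had 3.04, 3.24 and 3.14 CPM in PP2Ac KO and 2.27, 2.60 and 2.67 CPM in PP2Ac WT (log2 fold change 0.32, adjusted p = 0.0763, edgeR, and 0.0494 under the block). Gins2 leaned the other way, with 5.73, 7.66 and 6.95 CPM against 7.03, 9.08 and 7.63 CPM (log2 fold change -0.23, adjusted p = 0.224, edgeR, and 0.0373 with the block). The Gins1 to Gins2 ratio per length was higher in every PP2Ac KO library (1.43, 1.14 and 1.22) than in PP2Ac WT (0.875, 0.773 and 0.946), with an exact two-sided permutation p of 0.1. That pair, too, was picked after its values were seen. Exons of Gse1 on the other strand cover 67.3% of the Gins2 exons, and the strand setting of the counting was not stated. Gins3 (6.18, 6.66 and 5.51 CPM against 6.64, 7.77 and 6.11 CPM) and Gins4 (20.1, 24.1 and 23.1 CPM against 21.7, 25.7 and 22.8 CPM) overlapped between genotypes.

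Among polymerases and primase, 4 of 7 genes fell (57.1%, beside 19.0% of all genes, median log2 fold change -0.38). The polymerase epsilon genes Pole and Pole2, for the leading strand, fell most. Pole, the catalytic subunit, had 2.40, 2.27 and 2.78 CPM in PP2Ac KO and 4.97, 3.79 and 4.63 CPM in PP2Ac WT, 55.8% of the PP2Ac WT level (log2 fold change -0.84, SE 0.15, adjusted p = 0.00196, edgeR). Pole2 fell to 62.6% (log2 fold change -0.68, SE 0.20, adjusted p = 0.0231, edgeR). Exons of Gm49384 on the same strand cover 8.5% of the Pole2 exons, and 8.2% of its 50-base windows occur in other annotated transcripts. The small epsilon subunits Pole3 and Pole4, which are not members, did not pass the test (log2 fold changes -0.06 and 0.10). The Pole to Pole3 ratio per length was 0.0206, 0.0203 and 0.0227 in PP2Ac KO and 0.0428, 0.0292 and 0.0387 in PP2Ac WT, without overlap (exact two-sided permutation p = 0.1). This pair was picked after its values were seen.

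For polymerase delta, which copies the lagging strand, the catalytic subunit fell and an accessory subunit did not pass the test. Pold1 fell to 76.7% (log2 fold change -0.38, SE 0.11, adjusted p = 0.0251, edgeR), whereas Pold3 had 53.6, 52.3 and 53.6 CPM in PP2Ac KO and 51.3, 50.6 and 51.5 CPM in PP2Ac WT (log2 fold change 0.06, SE 0.05, adjusted p = 0.426, edgeR). The Pold1 to Pold3 ratio was lower in every PP2Ac KO library, with a log2 difference of -0.43 (exact two-sided permutation p = 0.1). Prim1, the catalytic primase subunit, fell to 70.6% (log2 fold change -0.50, SE 0.14, adjusted p = 0.0187, edgeR). The polymerase alpha subunits that primase is bound to did not pass the test. Pola1 had 15, 14.2 and 13.0 CPM in PP2Ac KO and 13.9, 12.2 and 10.4 CPM in PP2Ac WT (log2 fold change 0.21, adjusted p = 0.176, edgeR, and 0.022 with the replicate block). The Pola1 to Prim1 ratio per length was 2.90, 2.23 and 2.39 in PP2Ac KO and 1.74, 1.68 and 1.20 in PP2Ac WT, without overlap (exact two-sided permutation p = 0.1). The Pold1 to Pold3 and Pola1 to Prim1 pairs were picked after their values were seen. Pola2 had 11.9, 11.8 and 12.3 CPM against 12.1, 11.5 and 12.3 CPM (log2 fold change 0.00, SE 0.07).

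Of 8 genes of the clamp, its loader and the Okazaki fragment enzymes, 2 fell and 2 rose (25% each, beside 19.0% and 18.1% of all genes), with a median log2 fold change at -0.05. Lig1, which seals Okazaki fragments, fell from 30.8, 31.2 and 27.8 CPM in PP2Ac WT to 20.2, 22.6 and 22.5 CPM in PP2Ac KO (log2 fold change -0.46, SE 0.07, adjusted p = 0.00135, edgeR). Fen1, the flap nuclease, fell to 82.7% (log2 fold change -0.27, SE 0.08, adjusted p = 0.0261, edgeR), but 84.2% of its exon bases are also covered by exons of Tmem258 and Gm10143 on the other strand.

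Rfc3 (ENSMUSG00000033970.15, GRCm38 chr5:151642756-151651242, minus strand), a small subunit of the clamp loader, rose more than any other member. It had 24.1, 24.5 and 21.9 CPM in PP2Ac KO and 15.8, 13.0 and 11.2 CPM in PP2Ac WT (log2 fold change 0.81, SE 0.12, adjusted p = 0.000726, edgeR). All PP2Ac KO libraries lay well above all PP2Ac WT libraries. Rfc5 rose slightly, from 14.4, 13.8 and 14.4 CPM in PP2Ac WT to 15.5, 17.3 and 16.8 CPM in PP2Ac KO (log2 fold change 0.22, SE 0.07, adjusted p = 0.0365, edgeR). Rfc2 had 32.9, 30.8 and 33.3 CPM against 28.6, 29.9 and 31.0 CPM (log2 fold change 0.12), and Rfc4 had 2.24, 3.21 and 2.28 CPM against 3.56, 3.20 and 3.36 CPM (log2 fold change -0.40, adjusted p = 0.0794, edgeR, and 0.0417 with the block). The Rfc3 to Rfc4 ratio per length was 4.57, 3.24 and 4.08 in PP2Ac KO and 1.88, 1.73 and 1.41 in PP2Ac WT (log2 difference 1.24, exact two-sided permutation p = 0.1). This pair was picked after its values were seen.

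Pcna, the sliding clamp, was the member with the highest level per length, 93.4 CPM per kb in PP2Ac WT. It had 200, 199 and 208 CPM in PP2Ac KO and 218, 207 and 247 CPM in PP2Ac WT, and PP2Ac KO library 3 overlapped PP2Ac WT library 2. The log2 fold change of -0.15 (SE 0.08) had an adjusted p of 0.161 in edgeR, and 0.0241 with the replicate block. Of its 50-base windows, 19.1% occur in other annotated transcripts. Rpa2, a subunit of the protein that coats single-stranded DNA, had 8.75, 10.9 and 9.83 CPM in PP2Ac KO and 8.78, 9.61 and 10.3 CPM in PP2Ac WT (log2 fold change 0.04, SE 0.10).

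Among genes for chromatin and histone supply, 3 of 6 fell (50%, beside 19.0% of all genes). Uhrf1, which reads hemimethylated DNA behind the fork, had 4.03, 4.33 and 4.10 CPM in PP2Ac KO and 7.55, 7.70 and 9.28 CPM in PP2Ac WT (log2 fold change -0.98, SE 0.11, adjusted p = 0.000273, edgeR). Of the 50-base windows of Uhrf1, 15.4% occur in other annotated transcripts. Both large subunits of CAF-1, which places histones on new DNA, fell without overlap, Chaf1a to 66.3% (log2 fold change -0.59, SE 0.08) and Chaf1b to 76.0% (log2 fold change -0.40, SE 0.10). Exons of Ubxn6 on the other strand cover 52.5% of the Chaf1a exons.

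Dnmt1, the methyltransferase that Uhrf1 brings to new DNA, did not pass the test without the block. It had 126, 111 and 110 CPM in PP2Ac KO and 133, 120 and 121 CPM in PP2Ac WT, with overlap (log2 fold change -0.11, SE 0.08, adjusted p = 0.309, edgeR, and 0.0444 with the block). Hells, a chromatin remodeler, had 5.78, 5.45 and 5.18 CPM against 5.31, 4.39 and 5.03 CPM (log2 fold change 0.15), and Slbp, which binds histone mRNA, had 22.8, 24.7 and 21.8 CPM against 26.1, 26.7 and 22.6 CPM (log2 fold change -0.13).

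Members with lower levels tended to fall more. Across the 47 members, the Spearman correlation of the mean CPM per kb over all 6 libraries with the log2 fold change was 0.36. It is given as a description because genes share libraries and are not independent. The PP2Ac KO libraries enter that mean, so a fall itself lowers a member's level. Of the 24 members with the higher levels (1.87 to 88.9 CPM per kb), 9 fell and 3 rose (median log2 fold change -0.14). Of the 23 with the lower levels (0.108 to 1.79 CPM per kb), 14 fell and 0 rose (median log2 fold change -0.48). Over all genes tested, at any level, 19.0% fell and 18.1% rose. Shares among all genes of matching level were not counted, so whether this trend is particular to the members was not tested.

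**Figure D3:**
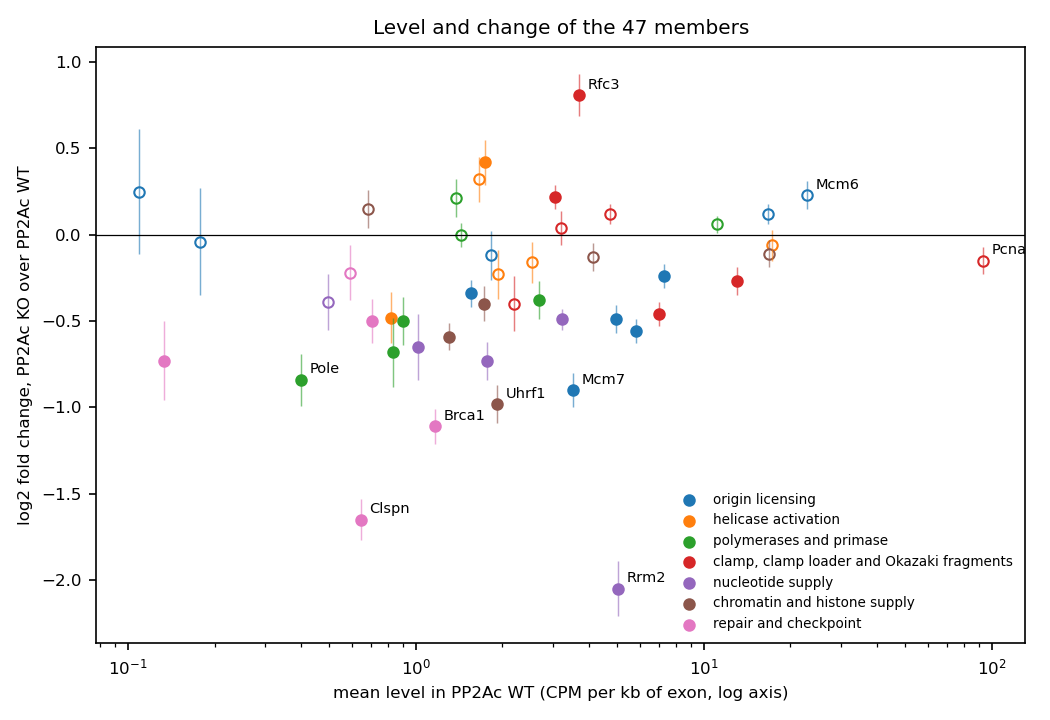
Log2 fold change of PP2Ac KO over PP2Ac WT (y axis, bars give the SE) against the mean PP2Ac WT level in CPM per kb of exon (x axis, log scale) for the 47 members, colored by role. Filled points passed an FDR under 0.05; Pcna and Mcm6 lie at the right near 0, Rrm2 and Clspn at the bottom and Rfc3 at the top.

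Further S-phase genes outside the 47 members were also examined. Of 75 further S-phase genes on 3 lists, all tested, 28 fell (37.3%) and 8 rose (10.7%), beside 19.0% and 18.1% of all genes (median log2 fold change -0.20). The count of falls was 15 without PP2Ac WT library 2 and 18 without PP2Ac KO library 1, and that of rises 4 and 5. Under the replicate block 35 fell and 10 rose, while 26.4% of all genes fell and 24.4% rose. Among 35 further replication genes, 15 fell and 3 rose (42.9% and 8.57%). Their summed level was higher in PP2Ac KO (984, 971 and 959 CPM) than in PP2Ac WT (948, 888 and 859 CPM). This sum is weighted to abundant genes, among them Mcmbp and Timeless, which rose, and does not describe most genes of the list. Dscc1, of an alternative clamp loader, fell most (log2 fold change -1.35, SE 0.28). Its level was low, 0.283 to 0.312 CPM in PP2Ac KO and 0.575 to 0.906 CPM in PP2Ac WT. Cdc7, the kinase that fires origins (-0.94, SE 0.17), and Wdhd1, which ties polymerase alpha to the helicase (-0.83, SE 0.12), followed. The 3 that rose were Timeless, Mcmbp and Mcm9. Timeless, of the fork protection complex, had 81.0, 74.3 and 68.7 CPM in PP2Ac KO and 46.0, 34.4 and 29.8 CPM in PP2Ac WT (log2 fold change 1.02, SE 0.14). Mcmbp, which binds MCM proteins, had 154, 140 and 133 CPM against 95, 76.7 and 73.1 CPM (0.80, SE 0.10). The call of Mcm9 (0.40, SE 0.11) was lost without PP2Ac KO library 1 or PP2Ac WT library 2 or 3.

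Of 10 further nucleotide supply genes, 2 fell (4 under the replicate block) and 2 rose, 20% each way and close to the share of all genes (median log2 fold change -0.09). Their summed level was 2520, 2280 and 2150 CPM in PP2Ac KO and 1480, 1150 and 1040 CPM in PP2Ac WT. The rises were Samhd1, which degrades deoxynucleotides, and Dck, a kinase of deoxynucleoside salvage. Samhd1 had 2050, 1810 and 1720 CPM in PP2Ac KO and 1120, 846 and 770 CPM in PP2Ac WT (log2 fold change 1.03, SE 0.14, adjusted p = 0.000502, edgeR). Dck had 398, 376 and 337 CPM against 276, 213 and 177 CPM (log2 fold change 0.74, SE 0.14, adjusted p = 0.00351, edgeR). Neither gene overlapped between genotypes, and both moved opposite to Rrm2. The falls were Dctd (log2 fold change -1.38, SE 0.40) and Shmt1 (-0.74, SE 0.24), both under 1 CPM, and both calls were lost with some libraries left out.

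Of 30 further chromatin and repair genes of S phase, 11 fell and 3 rose (36.7% and 10%, beside 19.0% and 18.1% of all genes). The median log2 fold change was -0.35. Among those that fell were Fancd2 of the Fanconi pathway (log2 fold change -0.81, SE 0.18) and Wee1, a kinase that restrains CDKs (-0.78, SE 0.12). Bard1, the partner of BRCA1, rose while Brca1 fell, with 8.27, 6.79 and 5.61 CPM in PP2Ac KO and 5.03, 4.14 and 4.48 CPM in PP2Ac WT (log2 fold change 0.60, SE 0.15, adjusted p = 0.0129, edgeR). Asf1a, a histone chaperone (0.45, SE 0.12), and Rmi2, a partner of BLM (1.13, SE 0.30, at 0.181 to 0.471 CPM), also rose. The calls of Bard1 and Rmi2 were lost without PP2Ac KO library 1 or PP2Ac WT library 2, and that of Asf1a without library 2 of either genotype.

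Genes of mitosis and G2/M were lower by more. Of 30 such genes, 28 fell and 2 rose (93.3% and 6.67%, beside 19.0% and 18.1% of all genes, median log2 fold change -1.12). At an FDR under 0.01, 19 fell by over 2-fold, beside 2.99% of all genes. Cenpf, a kinetochore protein, fell from 6.64, 6.81 and 8.04 CPM in PP2Ac WT to 2.10, 1.21 and 1.97 CPM in PP2Ac KO (log2 fold change -2.00, SE 0.18), and Anln and Ccnb2 fell by similar amounts (-1.70 and -1.71). The rises were Tpx2 (log2 fold change 0.59) and Cenpe (0.53), the latter not without PP2Ac KO library 1 or PP2Ac WT library 2 or 3. The difference between this list and the members was not tested. Per library, the median log2 ratio to the PP2Ac WT mean was -0.357, -0.228 and -0.282 over the members and -1.228, -1.172 and -1.035 over the mitotic genes in PP2Ac KO.

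**Figure D4:**
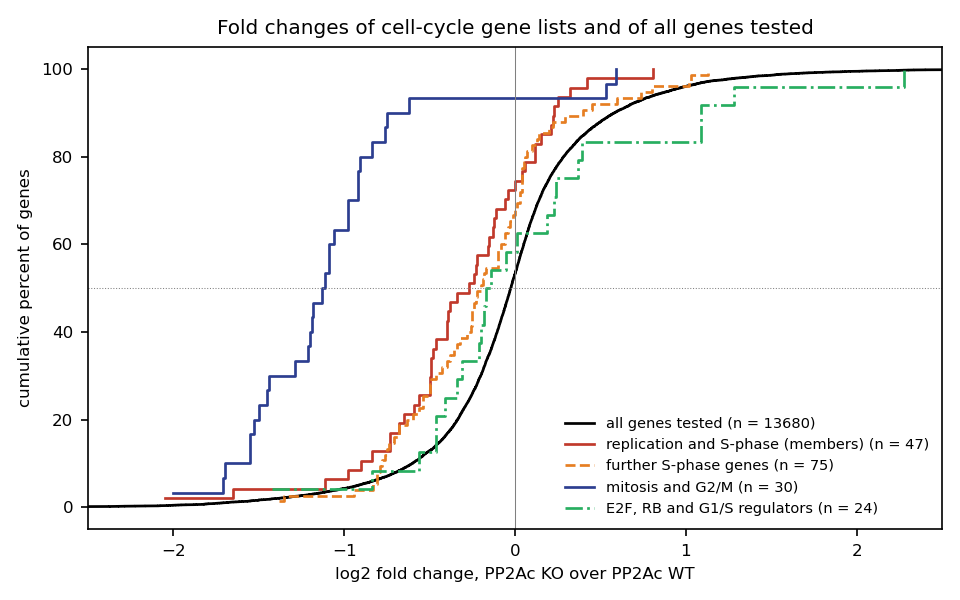
Cumulative percent of genes (y axis) by log2 fold change of PP2Ac KO over PP2Ac WT (x axis, shown from -2.5 to 2.5) for all 13680 genes tested, the 47 members, 75 further S-phase genes, 30 mitosis and G2/M genes and 24 regulators. The members' curve crosses the dotted middle line at -0.27 and the mitotic genes' curve at -1.12, beside -0.02 for all genes.

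The E2F, RB and G1/S regulators, which stand upstream of the members, went both ways. Of 24 such genes, 8 fell and 7 rose (33.3% and 29.2%, beside 19.0% and 18.1% of all genes, median log2 fold change -0.15). Under the replicate block 12 fell and 9 rose, while 26.4% of all genes fell and 24.4% rose. Without the block, the 8 falls were 5 when PP2Ac KO library 1 or PP2Ac WT library 2 was left out. The 7 rises were 4 without PP2Ac WT library 3. The rises were led by Ccnd2, a D-type cyclin, with 87.1, 69.6 and 62.8 CPM in PP2Ac KO and 19.7, 13.2 and 12.1 CPM in PP2Ac WT (log2 fold change 2.28, SE 0.18, adjusted p = 6.41e-05, edgeR), with Ccnd1 (1.28, SE 0.15), Rbl1, the RB family protein p107 (1.09, SE 0.17), and Cdkn1a, the CDK inhibitor p21 (1.09, SE 0.11). E2f7, a repressor of the family that is itself an S-phase gene (-1.42, SE 0.22), Cdkn2c (-0.84, SE 0.10) and Cdk2 (-0.56, SE 0.08) fell most.

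**Figure D5:**
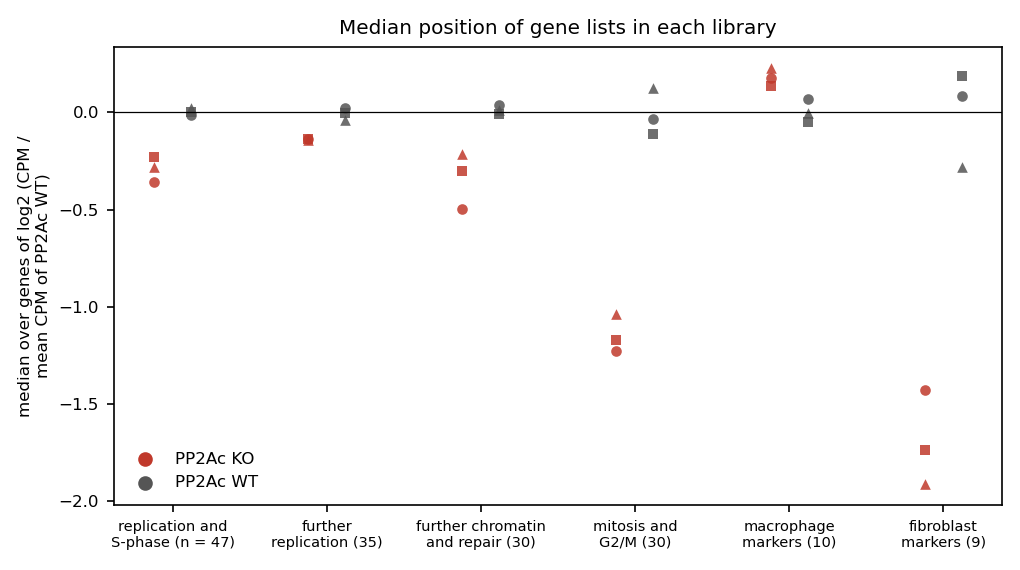
Median over the genes of each list of log2 CPM over the mean CPM of the 3 PP2Ac WT libraries (y axis), by list (x axis), with a point per library, red for PP2Ac KO and grey for PP2Ac WT. The members lie at -0.357 to -0.228 in PP2Ac KO and at -0.012 to 0.021 in PP2Ac WT; fibroblast markers lie lower in PP2Ac KO and macrophage markers higher.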

How the data were processed

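RNA-Seq of 6 BMDM libraries was analysed, 3 PP2A KO and 3 Wild Type, grouped by the labels. The authors deposited raw counts of reads per gene symbol. The submitters' processing notes name fastp 0.20.0, kallisto 0.46.1, STAR 2.7.1a, HTSeq 0.11.2, edgeR 3.34.0 and limma 3.48.3 with mm10 and GRCm38, without saying which made the counts. The libraries were poly(A)-selected and directional, while annotation, strand setting and treatment of multiply matching reads were not given in the sources used here. Counts of genes that overlap, or share sequence with others, are therefore uncertain.

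Counts were tested in R 4.3.3 with edgeR 4.0.16. Genes passed filterByExpr (minimum count 10, minimum total 15) and were scaled by TMM. Genotype was tested alone with glmQLFit and glmQLFTest, and p-values were adjusted by Benjamini-Hochberg over all 13680 genes tested. Fell and rose mean an FDR under 0.05. CPM use TMM-scaled library sizes, and CPM per kb divides by the union of exons in GENCODE M21. SE are those of the log2 fold change. Floors of 3 counts cover counting error only. An exact permutation test of 3 libraries against 3 cannot go below p = 0.1. The 8 ratios between subunits were picked after the values were seen, and no adjustment over them can reach a threshold.

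Both groups carry replicate numbers 1 to 3. Deviations of same-numbered libraries from their genotype means correlated over all genes (0.446, 0.275 and 0.459 for numbers 1, 2 and 3). Differently numbered libraries were not compared, so whether the numbers pair the libraries was not tested. The labels do not say what the numbers share. The main fit left them out, and the replicate block is given as an alternative. Each choice was varied alone: scaling (RLE or upper-quartile), the filter (none, or a minimum of 10 counts in each library), the replicate block, a library omitted in turn, DESeq2 1.42.0 or limma-voom (limma 3.58.1) as the test, and a call at a log2 fold change beyond 1 with FDR under 0.01. The tests were checked on simulated data.

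The members and lists were chosen with earlier results of these data known. Values in every library are given for members with the largest or smallest change or the highest level in their role, those not passing the test and those that rose, and for other lists the 3 genes called at each end are named, except 1 that is not reported here. Pole3, Pole4, Rrm2b, Orc2, Orc5 and Rbl1 were added after their values were seen. Promoters are RefSeq windows of GRCm38.p6, and 41 of 47 windows had the last 30 bases of the full window in a transcript of their own gene.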

Additional observations from a re-analysis of the deposited data

How the results depend on the processing

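Over the main analysis and 13 alternatives, 14 members fell in every setting (Mcm2, Mcm3, Mcm5, Mcm7, Pole, Lig1, Rrm1, Rrm2, Tk1, Uhrf1, Chaf1a, Brca1, Blm and Clspn), Rfc3 rose in every setting, and 13 members passed in none. The share of all genes called alike in every setting was not counted, so no background stands beside these counts. Members that rose numbered 6 with the replicate block and 1 to 5 with a library left out (1 without PP2Ac KO library 2 or 3 or PP2Ac WT library 2 or 3, 5 without PP2Ac WT library 1), while members that fell numbered 27 with the replicate block, 20 with DESeq2 and 16 to 21 with a library left out (57.4%, 42.6% and 34.0% to 44.7%, beside 26.4%, 16.7% and 13.3% to 19.6% of all genes). At a log2 fold change beyond 1 with FDR under 0.01, 3 fell and 0 rose. Upper-quartile scaling moved the median of all genes to -0.088 and that of the members to -0.339, and under it 61.6% of all calls were falls, against 51.3% in the main analysis. Leaving out a library, the further S-phase genes that fell numbered 15 to 25 (15 without PP2Ac WT library 2, 18 without PP2Ac KO library 1) and those that rose 4 to 9 (4 and 5 in the same order), and the regulators that fell numbered 5 to 8 (5 without either of these) and those that rose 4 to 7 (4 without PP2Ac WT library 3). Changes of sign were seen in 6 members, none of which passed the test in any of these settings. Pola2 was at -0.0634 with upper-quartile scaling, -0.00722 without the filter, -0.00337 with at least 10 counts in every library, -0.000787 with the replicate block. Rpa2 was at -0.0243 and Pold3 at -0.00649 with upper-quartile scaling. With a library left out, log2 fold changes ran from -0.115 to 0.0101 (Gins4), from -0.248 to 0.225 (Cdc6), from -0.0275 to 0.0234 (Pola2), from -0.0402 to 0.112 (Rpa2) and from -0.239 to 0.472 (Orc1). The cause of these shifts was not tested. The replicate block also made calls of Gins2, Pcna, Rfc4, Dnmt1, Mcm6, Gins1 and Pola1 and lost no member's call. Depth limits what can be said of Orc1, Cdc6, Exo1, Dscc1 and Dctd, whose levels were near or below 1 CPM.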
